A study of Homo sapiens with 6 samples.

Results

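RSAD2 and CMPK2 lie next to each other on chromosome 2 and point away from each other, and both were chosen here by symbol: the rows of the deposited table that the array's annotation assigns to RSAD2 or to CMPK2. Each gene had 1 row (transcript cluster 8040080 for RSAD2, 8050102 for CMPK2), so both members of the pair were measured, among 18417 genes with a row of their own. RNA of HEK293 cells, a line derived from human embryonic kidney that carries a piece of adenovirus DNA, had been hybridised to 6 Affymetrix Gene 1.0 ST arrays, 1 sample per array. The 3 treatment arrays are labelled as cells that received a Neo vector, and the 3 control arrays as cells that received a transient vector, while the design text sets cells transfected with the empty plasmid pCMV9 against untreated ones, so the groups are called treatment and control. Both groups are the same cell line, and the labels give neither the dose nor the time after treatment. They do not say whether replicates were separate cultures either, so p-values measure how far these arrays differ, which may be technical in origin. The stated question was which mediators accompany an anti-HIV effect of the empty vector.

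RSAD2 encodes viperin, an enzyme of the radical SAM family that uses an iron-sulfur cluster and S-adenosylmethionine to turn the nucleotide CTP into ddhCTP, a CTP analogue that ends RNA chains made by the polymerases of some viruses. CMPK2 encodes a mitochondrial kinase that phosphorylates the nucleotides UMP and CMP and their deoxy forms, a step on the way to CTP. Both genes are known as interferon-stimulated genes, and viperin is found on the endoplasmic reticulum and on lipid droplets.

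The arrays were alike as a whole. Median intensity lay between 77.2 and 84.2. After log2(intensity + 16), pairs of arrays had a Pearson's r of 0.957 to 0.981 across groups and 0.956 to 0.985 inside a group, over 33297 rows that are not independent replicates. Treatment replicate 3 stood farthest from the others, with a mean r of 0.963, and results are given without it where it changes them. Of 9 markers fixed for HEK293 cells 9 were measured, with mean intensities from 80.8 for the kidney factor PAX2 to 2590 for the cadherin CDH2, and 0 passed the test between the groups. Summed over 8 measured leukocyte markers, intensity was 499 to 687 on treatment arrays and 465 to 616 on control arrays, with the pan-leukocyte gene PTPRC between 8.45 and 27.7 on every array. The plasmacytoid dendritic cell markers CLEC4C and IL3RA summed to 41 to 52 on treatment arrays and 19 to 40 on control arrays. Summed over 6 fibroblast markers, intensity was 452 to 609 on treatment arrays and 487 to 673 on control arrays. COL1A1 (-0.46), the brightest of them, was lower in treatment, while 4 of the 6 were higher in treatment, among them PDGFRB (0.64) and COL1A2 (0.47). Of the 6, 3 had an unadjusted p under 0.05 in limma, as did 2430 of all 33297 rows. Of these markers 0 passed limma over all rows, and their part in the results was not tested. As a scale for dim signal, 381 rows of olfactory receptor genes, which this line is not known to use, had a 95th percentile of 52.4 to 77.2 per array. In bulk RNA of this kind, a higher share of responding cells and more RNA per responding cell cannot be told apart.

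The 2 genes start in shared DNA. In RefSeq on GRCh38.p14, RSAD2 spans chr2:6865885-6898239 on the plus strand with 2 RefSeq transcripts, and CMPK2 spans chr2:6840553-6866635 on the minus strand with 4, so their starting ends overlap by 751 bases on opposite strands. Whether any array probe lies in that overlap was not tested. The table of promoter windows (250 bases before to 50 after a start) holds 2 starts for RSAD2 and 3 for CMPK2. The upstream RSAD2 start has CMPK2 starts on both sides: 1 lies 66 bases away so that the genes diverge without overlap, and their windows share 165 bases, and another lies 22 bases away in the direction of RSAD2, so that the transcripts would overlap, with windows that share 77 bases. The third CMPK2 start lies 750 bases away. The downstream RSAD2 start lies 11142 bases or more from every CMPK2 start in the table. The 3 windows below are shown because they hold the DNA between the starts that diverge without overlap, read from each gene, and the separate RSAD2 start. Capitals mark matches on either strand to the IRF core AANNGAAA, to the TATA box TATAAA and to the core of the ISRE, the interferon-stimulated response element, which is GAAA, any 2 bases and GAAA again. Each window is printed 5′ to 3′ on its gene's strand.
RSAD2, upstream start, chr2:6865635-6865934, plus strand: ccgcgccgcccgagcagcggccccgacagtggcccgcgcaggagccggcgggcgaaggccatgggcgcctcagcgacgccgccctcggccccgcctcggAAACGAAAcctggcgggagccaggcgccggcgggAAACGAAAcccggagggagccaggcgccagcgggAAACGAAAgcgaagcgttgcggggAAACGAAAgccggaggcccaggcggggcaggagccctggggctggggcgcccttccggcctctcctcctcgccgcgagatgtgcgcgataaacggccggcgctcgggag
CMPK2, start that diverges from it without overlap, chr2:6865770-6866069, minus strand: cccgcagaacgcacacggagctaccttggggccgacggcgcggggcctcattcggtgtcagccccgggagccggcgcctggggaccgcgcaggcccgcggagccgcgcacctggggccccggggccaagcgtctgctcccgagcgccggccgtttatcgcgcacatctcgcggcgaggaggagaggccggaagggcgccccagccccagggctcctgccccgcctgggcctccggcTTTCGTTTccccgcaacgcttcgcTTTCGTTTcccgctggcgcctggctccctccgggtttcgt
RSAD2, downstream start, chr2:6877527-6877826, plus strand: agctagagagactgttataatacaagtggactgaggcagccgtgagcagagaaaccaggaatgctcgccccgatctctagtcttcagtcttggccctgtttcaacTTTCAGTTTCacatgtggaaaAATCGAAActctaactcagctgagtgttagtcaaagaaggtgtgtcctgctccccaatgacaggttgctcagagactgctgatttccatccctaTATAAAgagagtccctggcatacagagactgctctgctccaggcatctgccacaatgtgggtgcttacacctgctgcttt

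The upstream RSAD2 window held 4 matches to the IRF core, each of them AAACGAAA on the RSAD2 strand, beginning 151, 117, 83 and 59 bases before the start. Of all 35116 windows in the table, 0.273% held 4 or more such matches and 22.8% held at least 1. The IRF core was added to the search after these windows were read, so its shares are no independent measure of rarity. The CMPK2 window read 2 of the same copies from the other strand, as TTTCGTTT, beginning 14 bases before and 10 bases after its start, and 5.66% of windows held 2 or more. Neither of these windows (75.3% G and C for RSAD2, 74.7% for CMPK2) held the ISRE core or TATAAA. The downstream RSAD2 window, with 48.3% G and C, held both: an ISRE core match beginning 145 bases before the start, GAAACTGAAA as read on the strand opposite to the gene, and TATAAA beginning 30 bases before it. It also held 2 IRF core matches, 1 of which lies within the ISRE match. Of all windows 3.57% held the ISRE core and 11.5% held TATAAA. The GAS motif TTCNNNGAA, searched on both strands as well and present in 7.66% of windows, matched none of the 5 windows of the pair. The other 2 CMPK2 windows, that of the start 22 bases away included, matched none of these motifs. A match is a description of the letters and no evidence of binding, and the array's rows do not separate transcripts by start.

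RSAD2 rose strongly in the treatment arrays. Its intensity was 1303, 2317 and 2219 on treatment arrays 1, 2 and 3, against 64.2, 66.4 and 58.9 on control arrays 1, 2 and 3. The groups were far apart, and the spread lay on the treatment side: the highest treatment array was 1.78 times the lowest, the highest control array 1.13 times the lowest. The means were 1950 ± 559 in treatment and 63.1 ± 3.86 in control (SD, n = 3 each). On the log2(intensity + 16) scale this is a change of 4.59 ± 0.238 (SE; 95% interval 4.08 to 5.10; limma, adjusted p = 8.88e-07), or 24.0-fold, where the offset of 16 damps noise near 0 and lowers the fold. The plain ratio of mean intensities was 30.8. Among the 18417 genes RSAD2 ranked 1 by p and 2 by size of rise, and these ranks depend on the offset: with offsets of 50 and 1 and a plain log2 it ranked 3, 1 and 2 by p and 1, 4 and 15 by size.

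CMPK2 rose as well, by less. It gave 1242, 1550 and 1260 on treatment arrays 1, 2 and 3, against 66.5, 90.8 and 126 on control arrays 1, 2 and 3. Here the spread lay on the control side, with a highest over lowest array of 1.25 in treatment and 1.90 in control. The means were 1350 ± 173 in treatment and 94.4 ± 29.9 in control (SD, n = 3 each), and the change was 3.66 ± 0.232 on the log2(intensity + 16) scale (SE; 95% interval 3.16 to 4.16; limma, adjusted p = 1.82e-06), or 12.6-fold. CMPK2 ranked 8 by p and 10 by size of rise, and with the same 3 alternatives 5, 8 and 7 by p and 9, 16 and 47 by size. The rise of both members stands against a background in which 0.372% of the 33297 rows passed at this threshold, 0.357% as rises and 0.015% as falls. That the treatment and control arrays of a gene did not overlap, as for both members, was the case for rises in 7.47% of rows.

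**Figure D1:**
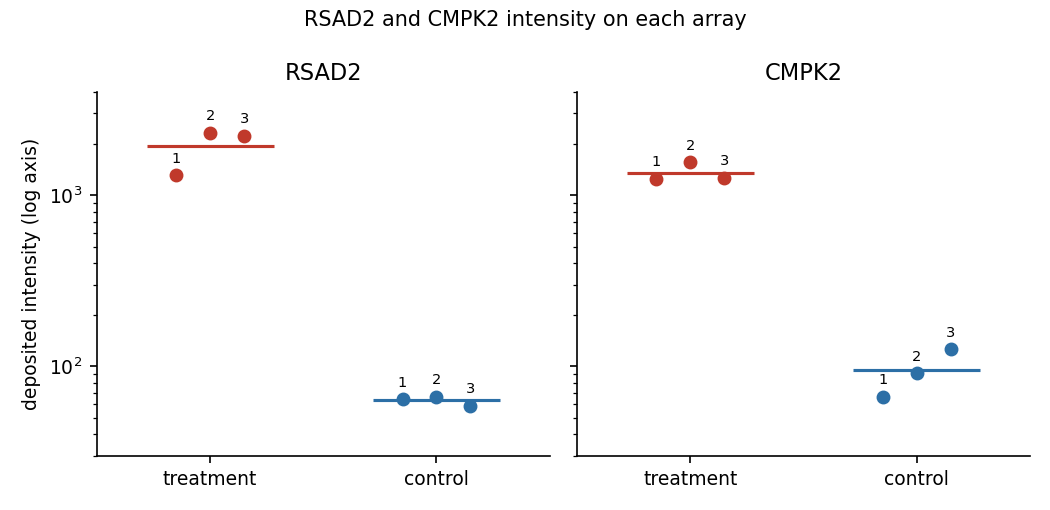
Deposited intensity (log axis) of RSAD2 and CMPK2 on each array, with treatment left of control, 1 point per array numbered by replicate and a bar at the mean of each group. RSAD2 arrays sit at 1303 to 2317 in treatment and 58.9 to 66.4 in control, CMPK2 arrays at 1242 to 1550 in treatment and 66.5 to 126 in control.

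Placed within each array, both genes moved from the middle to near the top. RSAD2 was brighter than 95.1% to 98.7% of rows on treatment arrays and than 44.4% to 47.3% of rows on control arrays. CMPK2 was brighter than 94.7% to 96.8% of rows on treatment arrays and than 47.5% to 57.9% on control arrays. The control signal of RSAD2 thus lay only just above the olfactory receptor rows, whose 95th percentile was 52.4 to 56.0 on control arrays, so the size of its rise depends on how dim signal is handled. It was 4.10 when 50 was added in place of 16 and 4.90 on a plain log2 scale, and that of CMPK2 was 3.29 and 3.88. Both calls held under each of 18 alternatives, with an adjusted p from limma of at most 0.0138 for RSAD2 and 0.0252 for CMPK2. Without treatment replicate 3 the changes were 4.47 and 3.70.

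The rise of RSAD2 exceeded that of CMPK2 by 0.93 on the log2 scale, but 6 arrays cannot decide that this differs from 0. The level of the log2 difference RSAD2 minus CMPK2 has no meaning between probe sets. Whether its shift between groups also reflects how the 2 probe sets respond was not tested. The difference was 0.07, 0.58 and 0.81 on treatment arrays 1, 2 and 3, against -0.04, -0.37 and -0.92 on control arrays 1, 2 and 3. Every treatment array was above every control array, by as little as the step between treatment replicate 1 and control replicate 1. The exact permutation test over the 20 assignments of arrays, two-sided, gave p = 0.1, the smallest this design allows. The difference was positive under all 12 alternatives run for it, from 0.69 without control replicate 3 to 1.14 without treatment replicate 1. Among the control arrays CMPK2 was highest and RSAD2 lowest on replicate 3, while both were higher on replicate 2 than on replicate 1.

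No measured neighbour of the pair passed. Of the 10 nearest measured genes, 5 on each side in RefSeq order, 0 passed limma over all rows. An unadjusted p under 0.05 was reached by 2430 of all 33297 rows and by 1 of the 10. That was RNF144A, a ubiquitin ligase gene and the next measured gene beyond RSAD2, with 104, 106 and 124 on treatment arrays against 55.0, 90.9 and 81.7 on control arrays, a change of 0.49 ± 0.215 (SE; limma, adjusted p = 0.68). LINC00487, a non-coding RNA gene and the next measured gene beyond CMPK2, gave 15.2, 34.3 and 48.5 on treatment arrays against 16.5, 29.7 and 10.7 on control arrays, groups that overlap, with a change of 0.45 ± 0.28 (limma, adjusted p = 0.737). Farther out on the CMPK2 side were LOC400940 (0.21), SILC1 (0.39), the transcription factor gene SOX11 (-0.16) and ALLC (0.28), and on the RSAD2 side LINC00299 (0.06), ID2 (0.01), which encodes an inhibitor of DNA binding, KIDINS220 (-0.13) and ASAP2 (-0.26), all as log2 changes. The widest 95% interval among these 10 reached 1.05, at LINC00487, so rises the size of either member lie outside all of them. NRIR, a long non-coding RNA gene next to CMPK2 on the same strand that is known to be induced by interferon, has no row under its own symbol and was not analysed here.

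**Figure D2:**
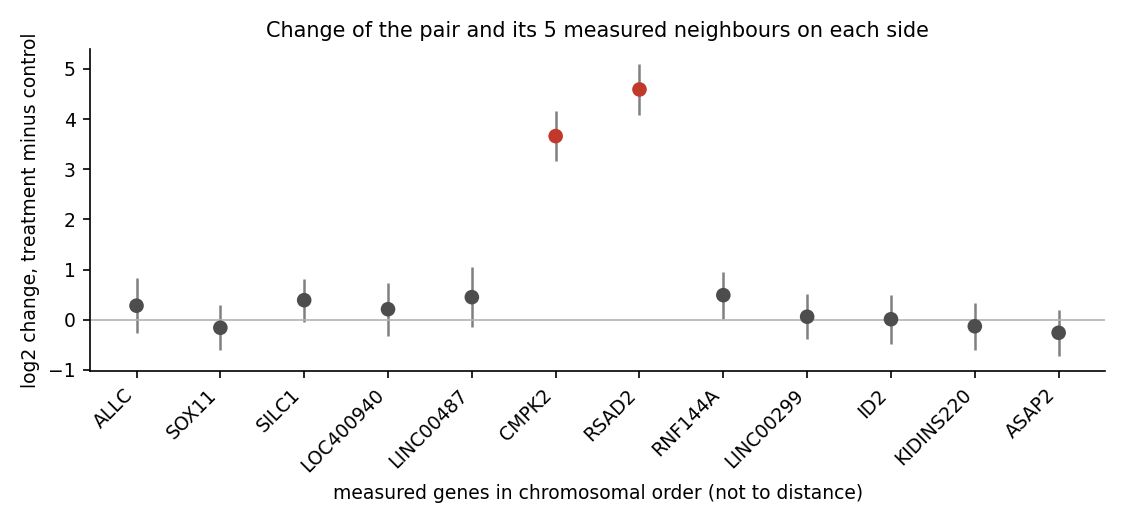
Log2 change (treatment minus control, log2(intensity + 16) scale) with its 95% interval from limma for the pair and the 5 nearest measured genes on each side, in chromosomal order and not to distance. CMPK2 (3.66) and RSAD2 (4.59) stand alone, and the other 10 genes lie between -0.26 and 0.49.

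Neighbouring genes that rose together were seen elsewhere too. Of 18367 pairs of measured genes next to each other in RefSeq order, both genes passed in 23 (0.125%), and both rose in each of them. With the offset of 16, CMPK2 and RSAD2 had the largest summed change of the 23, 8.25 on the log2 scale, followed by MX2 and MX1 (8.11), IFIT2 and IFIT3 (7.72), OAS3 and OAS2 (7.60), IFI44L and IFI44 (7.42), OAS1 and OAS3 (6.69), IFITM1 and IFITM3 (6.29), TRIM5 and TRIM22 (5.58), SAMD9 and SAMD9L (5.41), DDX60 and DDX60L (5.06), IFNL2 and IFNL1 (4.53) and IFIT1 and IFIT5 (4.44). This order turns with the offset, since MX2 and other genes in it have control signal below that of the dim olfactory receptor rows: MX2 and MX1 summed to 9.49 and CMPK2 and RSAD2 to 8.74 with an offset of 1, and 9.65 and 8.78 on a plain log2 scale, where CXCL10 and CXCL11 came first, whereas with an offset of 50 CMPK2 and RSAD2 came first (7.39). In 11 of these 12 the symbols mark members of 1 gene family, whose similar sequences probes may not fully separate, whereas CMPK2 and RSAD2 encode unrelated enzymes. The 23 pairs share genes and arrays and are not independent. Where the promoter table gave the strand of both genes, 3 of 3092 divergent pairs passed, CMPK2 and RSAD2, TAP1 and PSMB9 (1.44 and 2.37), and PARP9 and DTX3L (1.65 and 1.87), the last 4 genes being named after their values were seen. Of the others with known strands, 2 of 3052 convergent and 12 of 5568 same-strand pairs passed. The orientation was unknown for 6655 pairs, 6 of which passed, so passing pairs of each orientation may be missed. Within a pair the changes differed by 0.02 to 2.89 on the log2 scale, with 0.93 for CMPK2 and RSAD2. The count of 23 was 14 without control replicate 1 as well as without treatment replicate 2, 9 when 1 was added in place of 16, and 8 on a plain log2 scale.

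**Figure D3:**
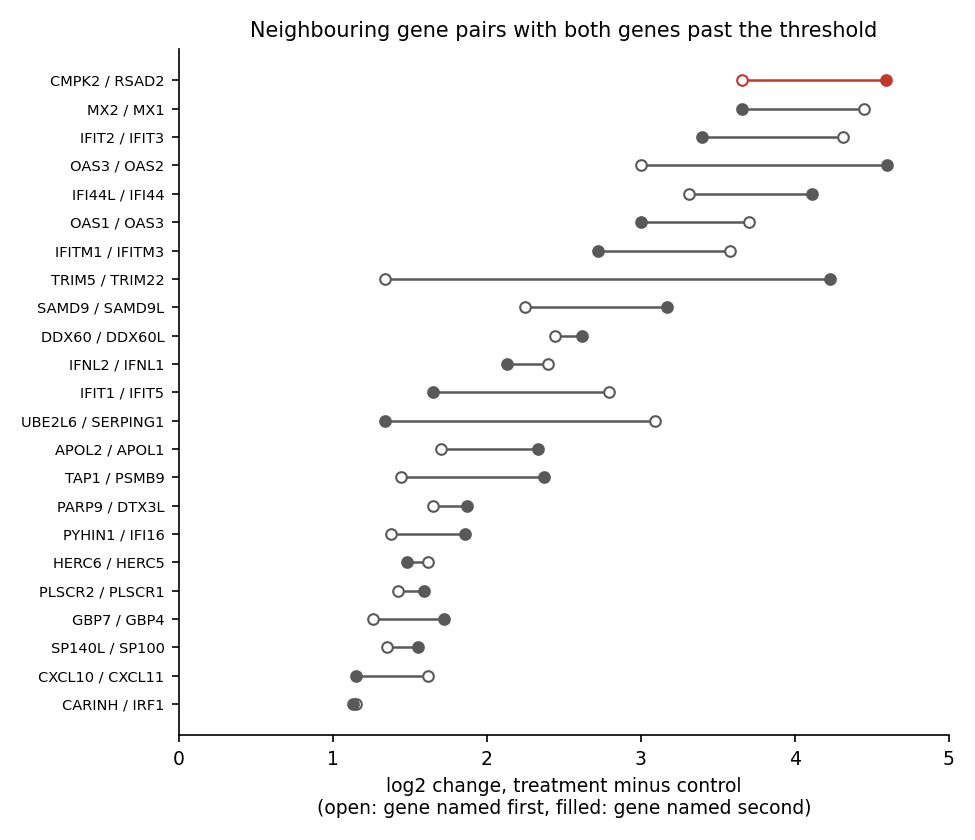
Log2 change (treatment minus control) of both genes in the 23 pairs of neighbouring genes that both passed limma, ordered by summed change, with an open circle for the gene named first and a filled circle for the gene named second. CMPK2 and RSAD2, in red at 3.66 and 4.59, have the largest sum with this offset of 16, but not with an offset of 1 or a plain log2.

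Over the 6 arrays and with the offset of 16, each member lay closer to several other genes than to its neighbour. The distance used includes the size of the rise. Likeness was measured as the root mean square difference of the 2 genes' log2(intensity + 16), each relative to its own control mean, so that 0 would be the same profile. The 5 genes closest to RSAD2 were MX2 (0.208), a dynamin-like protein that inhibits HIV, OAS2 (0.231), which makes the 2-5A that activates RNase L, IFIT2 (0.271), an RNA-binding protein, TRIM22 (0.298), a ubiquitin ligase, and XAF1 (0.352), a regulator of apoptosis. CMPK2 had rank 10 of 18416 genes, at 0.739. The genes closest to CMPK2 were MX1 (0.142), the dynamin-like inhibitor of influenza virus, OAS1 (0.211), IFI44L (0.25), IFIT3 (0.257) and IFITM1 (0.334), which hinders virus entry at membranes. RSAD2 had rank 19 from CMPK2. These ranks partly mirror the size of the rises. The 5 genes closest to RSAD2 changed by 4.17 to 4.60 on the log2 scale, and the 5 closest to CMPK2 by 3.31 to 3.70. The 0.93 between the members' own changes enters their distance, and 6 arrays cannot decide that it differs from 0. The median over all genes was 3.27 from RSAD2 and 2.61 from CMPK2. Because few rows passed between the groups, these medians largely mirror each member's own rise. That 0.739 is smaller thus adds little beyond both genes having risen. The ranks ran from 9 to 12 for CMPK2 and from 17 to 28 for RSAD2 under the other offsets and the unshifted log2. MX2, OAS2 and XAF1 had control values below the olfactory receptor rows' 95th percentile, so their distance from RSAD2 rests on the offset. Of the 5 genes closest to RSAD2, 4 were among the closest 5 with an offset of 1, without MX2, 4 with an offset of 50, without XAF1, and 3 on a plain log2 scale, without MX2 and XAF1. For CMPK2 these counts were 4, 4 and 5.

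The members also differed in how far treatment replicate 1 lay below the other treatment arrays. Relative to its control mean, RSAD2 was at 4.06, 4.88 and 4.82 on treatment arrays 1, 2 and 3, and CMPK2 at 3.55, 3.86 and 3.57. MX2, the closest gene to RSAD2, had 344, 729 and 699 on treatment arrays 1, 2 and 3, against 6.82, 9.54 and 15.3 on control arrays 1, 2 and 3, so that treatment replicate 1 was lowest in MX2 as in RSAD2. MX1, the closest to CMPK2, had 1413, 1877 and 1670 on treatment arrays, against 76.8, 139 and 141 on control arrays. Of 24 other interferon-induced antiviral effector genes, 21 were lowest of the treatment arrays on replicate 1, as both members were, and 19 were highest of the control arrays on replicate 3, as CMPK2 was and RSAD2 was not.

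**Figure D4:**
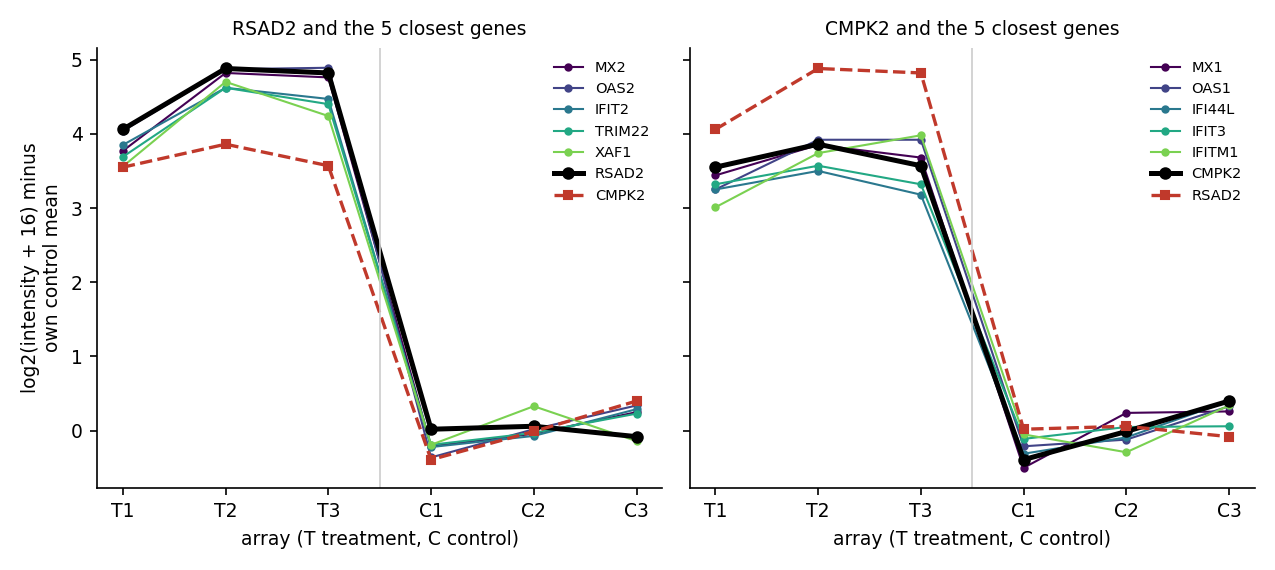
Log2(intensity + 16) relative to each gene's own control mean on the 6 arrays, for RSAD2 (left) and CMPK2 (right) in black, the 5 closest genes in colour and the other member of the pair dashed; lines join the arrays of 1 gene and imply no order. RSAD2 runs with MX2 and OAS2 at 3.77 to 4.89 on treatment arrays, CMPK2 with MX1 and OAS1 at 3.25 to 3.92.

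Around viperin, the enzymes of its own class did not follow it. Of 7 other human radical SAM enzymes 0 passed, and the median change was -0.23, against 0.01 over all rows. An unadjusted p under 0.05 was found for 2 of the 7, both lower in treatment, and for 2430 of all 33297 rows. RSAD1, which is named for its likeness to the radical SAM family and handles heme, gave 103, 104 and 88.7 on treatment arrays against 175, 142 and 150 on control arrays, a change of -0.58 ± 0.197 (SE; limma, adjusted p = 0.577). Its groups did not overlap, as was the case for falls in 7.1% of all rows, and neither did those of MOCS1, which starts molybdenum cofactor synthesis (-0.45 ± 0.2, adjusted p = 0.68), and TYW1, which modifies transfer RNA (-0.34 ± 0.194, adjusted p = 0.719). The 95% interval of RSAD1 ran from -1.01 to -0.16, and no interval among the 7 came near the rise of RSAD2.

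The machinery that could supply viperin's iron-sulfur cluster showed 0 passing genes among 16 measured, with 0 at an unadjusted p under 0.05 and a median change of -0.13. CIAO3, a subunit of the cytosolic targeting complex, had the lowest p, with 78.1, 70.5 and 79.4 on treatment arrays against 148, 86.5 and 106 on control arrays and a change of -0.47 ± 0.218 (SE; limma, adjusted p = 0.69). MMS19, of the same complex, gave -0.36 ± 0.2 (adjusted p = 0.717), and the ferredoxin gene FDX2 gave -0.40 ± 0.240 (adjusted p = 0.726). Of 12 proteins reported to bind viperin 0 passed, and the median was -0.09. Of all 33297 rows 2430 had an unadjusted p under 0.05, and of the 12 there was 1. That was FDPS, the farnesyl diphosphate synthase of the isoprenoid pathway, with 631, 668 and 690 on treatment arrays against 996, 802 and 916 on control arrays and a change of -0.43 ± 0.195 (limma, adjusted p = 0.68). The kinase IRAK1 gave -0.17 ± 0.215 (adjusted p = 0.882), and CIAO2B, a member of the targeting complex and of both lists, gave -0.36 ± 0.249 (adjusted p = 0.763).

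Around CMPK2, 1 of 32 other genes of pyrimidine nucleotide supply rose, 31 missed the threshold and 0 fell. Their median change was -0.18, and 4 had an unadjusted p under 0.05, as did 2430 of all 33297 rows. The share of all rows past the threshold as rises was 0.357%. The gene that rose was SAMHD1, which cuts deoxynucleoside triphosphates and restricts HIV in non-dividing cells. It had 2073, 2307 and 2167 on treatment arrays against 838, 902 and 943 on control arrays, a change of 1.27 ± 0.192 (SE; limma, adjusted p = 0.00549). This call was lost without control replicate 1 (adjusted p = 0.0596) or treatment replicate 2 (adjusted p = 0.067), when 1 was added in place of 16 (0.104) and on a plain log2 scale (0.125). CMPK1, the cytosolic counterpart of CMPK2, gave 580, 556 and 396 on treatment arrays against 554, 478 and 558 on control arrays, groups that overlap. Its change was -0.07 ± 0.213 with a 95% interval from -0.53 to 0.39. CTPS1, which makes CTP from UTP, gave -0.19 ± 0.201 with an interval from -0.63 to 0.24, and NT5C3A, a nucleotidase that removes the phosphate of CMP and UMP, gave 0.62 ± 0.214 with an interval from 0.16 to 1.08 (limma, adjusted p = 0.592). CAD (-0.5 ± 0.196, interval from -0.92 to -0.08) and UCKL1 (-0.45 ± 0.199, interval from -0.88 to -0.03) also had an unadjusted p under 0.05. Both were lower in treatment and did not pass (limma, adjusted p = 0.661 and 0.68). Of the 32 changes 25 were negative and 7 positive. CMPK1, CTPS1, NT5C3A, CAD and UCKL1 were named after their values were seen. NME1 shares its row with another symbol and was not counted.

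Of 7 measured genes for transcription factors known to act on RSAD2 or on interferon-stimulated genes at large, 2 rose, 5 missed the threshold and 0 fell. Their median change was 0.53, and of all rows 0.357% rose. IRF7, a factor that drives interferon genes, had 215, 308 and 478 on treatment arrays against 85.6, 98.5 and 82.2 on control arrays, a change of 1.67 ± 0.258 (SE; limma, adjusted p = 0.00699), a call lost in 4 of 18 alternatives: without control replicate 1 (adjusted p = 0.102), when 1 or 50 was added in place of 16 (0.164 and 0.0688) and on a plain log2 scale (0.3). IRF1, which can act on RSAD2 without interferon, had 166, 239 and 204 on treatment arrays against 77.3, 85.5 and 85.8 on control arrays, a change of 1.13 ± 0.205 (limma, adjusted p = 0.0254) that did not pass in 9 of 18 alternatives. The count of 2 fell to 0 without control replicate 1. It was 1 without treatment replicate 2, treatment replicate 3, control replicate 2 or control replicate 3. Without treatment replicate 1 it was 3, as with an intensity trend, with 1 row per gene and with only rows at or above the median intensity.

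The genes that moved like the pair were other antiviral effectors. Of 24 interferon-induced effector genes outside the pair 23 rose and 1 did not pass, while 0.357% of all rows rose. Their median was 2.90, with a range from 0.82 to 4.60, against a median of 0.01 over all rows. The list was drawn up with earlier results of these arrays known, so its count is no independent evidence of direction. Those with the lowest p were IFI44 (4.11), IFIT2 (4.31), IFIT3 (3.4), OAS2 (4.60), TRIM22 (4.23) and MX2 (4.45), as log2 changes. RSAD2 at 4.59 was thus just below OAS2 and above the other 23 with the offset of 16, but 3 of the 24 were above it when 1 or nothing was added before log2, and 0 when 50 was added. CMPK2 at 3.66 was at the level of MX1 (3.66) and OAS1 (3.70), differences smaller than their SE. EIF2AK2, the kinase PKR that stops translation, did not pass (0.82 ± 0.211; limma, adjusted p = 0.292).

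**Figure D5:**
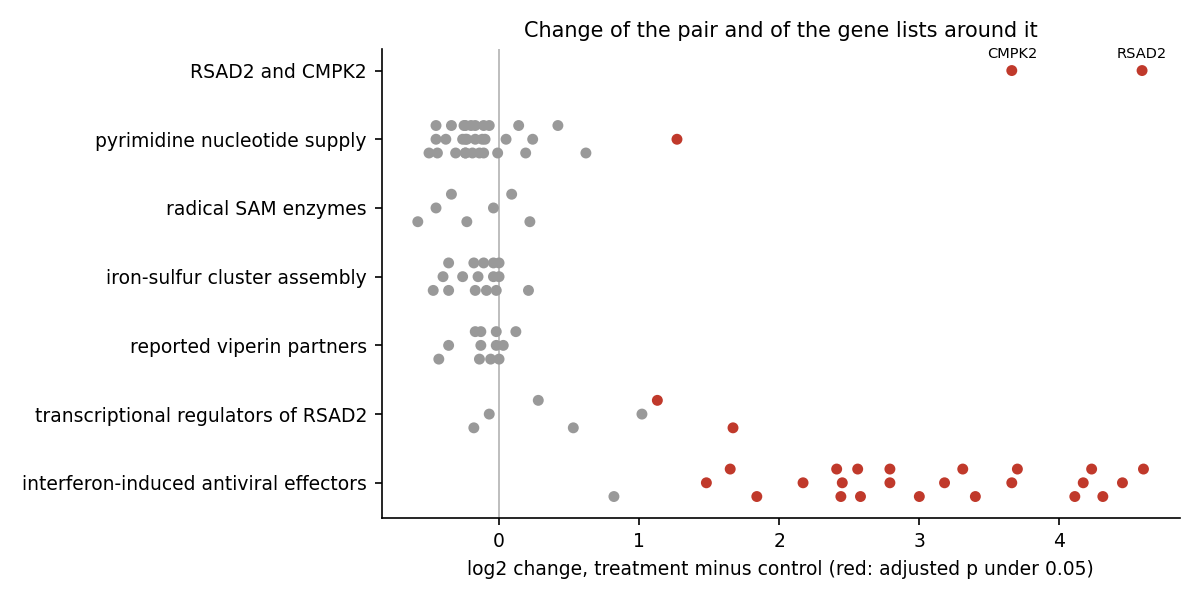
Log2 change (treatment minus control) of RSAD2 and CMPK2 in the top row and of the measured members of each list below, 1 point per gene, red where limma's adjusted p was under 0.05 and grey otherwise, with points spread vertically for visibility. The enzymes and partners around the pair lie between -0.58 and 0.62 with the exception of SAMHD1 (1.27), whereas the 24 antiviral effectors lie between 0.82 and 4.60.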

How the data were processed

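The authors deposited 1 table of linear intensities, 1 value per transcript cluster and array, from 6 Affymetrix Gene 1.0 ST arrays of HEK293 cells. Partek is named per the submitters' processing notes, and background correction, normalization and probe summary were not given in the sources used here. Values ran from 3.73e-05 to 9794, and the number of arrays limits the precision. Columns were matched to samples by accession, groups to sample titles (3 treatment, 3 control), and rows to genes by the platform annotation of 2016, which gave 19460 rows 1 symbol, 1754 several and 12083 none. A gene with several rows was represented by the one with the highest mean. Because intensities approach 0, 16 was added before log2. Each of 33297 rows was tested with limma 3.58.1 in R 4.3.3 (lmFit, eBayes, two-sided, no block, Benjamini-Hochberg over all rows, threshold 0.05), a pipeline tested on simulated data. "Rose" and "fell" mean past that threshold.

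The members, the gene lists and the offset were chosen with earlier results of these data known. Named genes were the pair, its neighbours, the 5 closest genes to each member, the 12 pairs with the largest summed change, and of each list up to 6 passing genes, or otherwise 3, by lowest p. Promoter windows, gene order (18392 of 18417 genes placed) and strands came from RefSeq tables of GRCh38.p14. The IRF core was added after the windows were read. Protein sequences were not used here. Alternatives were a replicate block, quantile normalization, median centring, offsets of 1 and 50, plain log2, filters on dim rows, 1 row per gene, an intensity trend, a robust prior, an adjusted p under 0.01, and leaving out each array.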

Additional observations from a re-analysis of the deposited data

How the results depend on the processing

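The changes of RSAD2 (4.10 to 4.90) and CMPK2 (3.29 to 3.88) kept their direction and their call under all 18 alternatives. So did the 10 closest genes named for likeness, and the lists of radical SAM enzymes, iron-sulfur assembly, viperin partners and neighbours stayed at 0 calls in each. The effector count ran from 17 to 24 of 24. Leaving out 1 array at a time gave 69 to 129 rows changed, 0 to 1 in the pyrimidine list, 0 to 3 among regulators, 14 to 24 neighbouring pairs, and a difference between the members' changes of 0.69 to 1.14. With an offset of 1 the count of rows was 58, of pyrimidine genes 0, of regulators 0 and of pairs 9; with a plain log2 these were 40, 0, 0 and 8. The regulator count was 1 with an offset of 50, 1 at an adjusted p under 0.01 and 1 with the replicate block. The cause of these moves was not tested. The neighbouring pairs and likeness ranks under alternatives were added after seeing the data.

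With the replicate number as a block, RSAD2 changed by 4.59, CMPK2 by 3.66 and 105 rows passed, and the paired difference between the members gave an exact permutation p of 0.25, the smallest for 3 pairs. Same-numbered arrays did not deviate together (r of deviations from group means -0.17, 0.08 and -0.36). Deviations within groups of 3 arrays are tied to each other, so these values cannot decide whether the numbers pair the samples. No technical batch is labelled. The dim control signal of RSAD2 limits how exactly its fold can be given.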
